A study of Mus musculus with 30 samples.

Results

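The 88 gene entries described here hold nuclear-encoded subunits of the oxidative phosphorylation machinery and 11 factors that assemble it. They were taken by symbol, as genes whose name begins with Nduf (complex I), Sdh (complex II), Uqcr (complex III), Cox4 to Cox8 (complex IV) or Atp5 (complex V, the ATP synthase), without names ending in -ps or os, and with a mean of at least 5 CPM, the count scaled to the size of its library, over all 30 libraries. Of 54146 genes in the count table, 111 had such a symbol, of which 4 ended in -ps or os and 19 were under the level minimum. The symbols miss some subunits and carriers, such as Cyc1, Cycs and Usmg5, and Atp5o is counted as separate entries. The 77 subunits divided into 37 of complex I, 4 of complex II, 8 of complex III, 11 of complex IV and 17 of complex V, and the assembly factors into 7 of complex I and 4 of complex II. All 88 were tested in every comparison, the level minimum having already left out genes at low levels. The members nearest to the minimum on the inside were Sdhaf3 at a mean of 6.30 CPM and Ndufaf2 at 6.74 CPM, and those nearest on the outside were Ndufaf6 at 4.76 CPM and the pseudogene Atp5k-ps2 at 3.88 CPM.

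Oxidative phosphorylation takes place in the inner mitochondrial membrane, where complexes I and II pass electrons from NADH and succinate to ubiquinone, complex III passes them to cytochrome c, and complex IV reduces oxygen. Complexes I, III and IV pump protons, and the ATP synthase uses the gradient to make ATP. Most subunits are encoded in the nucleus, while a small core set is encoded by mitochondrial DNA (mtDNA), so the complexes are built from transcripts of separate genomes. Macrophages activated by the cytokine interferon gamma (IFNG) are known for a shift of their energy metabolism towards glycolysis.

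RNA was measured in J774A.1 cells (J774 in the sample labels), an established macrophage-like line from mouse, by poly(A)-selected, stranded RNA-seq. The 3 WT clones WT1, WT2 and WT3 carried no deletion, and the knockout clones KO1 and KO2 had lost an interferon-inducible B2_Mm2 repeat element, located in an intron of Dicer1, from both alleles after Cas9 cutting. Every line was expanded from a single cell, so each clone is also its own genetic background, and with 2 KO and 3 WT clones an effect of the deletion cannot be told apart from other differences between clones. Each clone was either untreated or given 100 ng/mL mouse IFNG for 4 h, in 3 libraries per clone and treatment. No label says that the 3 libraries came from separate cultures, so p-values within a clone measure the spread between its libraries, which may be technical, and those of KO against WT, fitted without a clone term, also hold the spread between WT clones.

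Library totals ran from 15566122 to 37992642 assigned counts with a median of 23682133.5. Dicer1, the gene whose intron held the deleted element, lay at 70.5 to 73.0 CPM in untreated KO1, 101 to 108 CPM in untreated KO2 and 96.7 to 130 CPM in untreated WT libraries, so KO2 overlapped WT. With IFNG, Dicer1 rose in WT1 (log2 fold change 0.36), WT2 (0.32) and WT3 (0.40) and did not pass the test in KO1 (0.10) or KO2 (-0.07). Macrophage markers such as Csf1r (966 to 1468 CPM) and Cd68 (475 to 659 CPM) were high in every library, while the T cell, B cell and epithelial markers examined stayed at or near 0. Macrophage markers were not uniform: Csf1r, Cd68, Adgre1, Lyz2, Itgam, Ptprc, Fcgr1 and Mertk all differed among the untreated clones, as did 73.2% of all genes. Adgre1 had the lowest adjusted p of these markers (2.2e-22, edgeR test of the 5 clones). Of the fibroblast and endothelial markers, Pdgfra (0.289 to 2.85 CPM), Pecam1 (0.197 to 1.503 CPM) and Cdh5 (1.07 to 2.17 CPM) were detected in every library, and Pdgfra and Pecam1 differed among the untreated clones, whose part in the results was not tested. Against the other WT clones, 52.6% of the genes tested differed for WT1 in untreated libraries, 0.852% for WT2 and 1.02% for WT3. In the last 2 of these tests WT1 is part of the reference and its distance counts as residual spread, so the percentages cannot be compared with that of WT1.

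Some promoters of the members held motifs of known transcription factors, which the choice by symbol did not use. RefSeq promoters (build GRCm38.p6, 250 bases before to 50 after the annotated start) were matched for 76 members, with 75 distinct sequences. The Nrf1 motif (GCGC at its ends, as in the capitals below) was found in 20 of 75 (26.7%), against 4.78% of all 27025 promoters, and the Yy1 motif AANATGGCG in 10 (13.3%), against 2.51%. Nrf1 and Yy1 are transcription factors known for binding genes of the respiratory chain. The ETS-family motif CCGGAAGT was in 5 (6.67%, against 4% of all). Both strands were searched, and a match describes letters in the window, not a bound site. The promoters of the 4 members on which the results below turn most are printed 5' to 3' on the strand of the gene, with motif matches in capitals. Sdhaf2 (chr19:10525160-10525459, minus strand) had a Yy1 match. Sdhaf1 (chr7:30322326-30322625, minus strand) had no match. Ndufaf5 (chr2:140170396-140170695, plus strand) had 1 Nrf1 match, and Sdha (chr13:74350191-74350490, minus strand) had 3.
Sdhaf2: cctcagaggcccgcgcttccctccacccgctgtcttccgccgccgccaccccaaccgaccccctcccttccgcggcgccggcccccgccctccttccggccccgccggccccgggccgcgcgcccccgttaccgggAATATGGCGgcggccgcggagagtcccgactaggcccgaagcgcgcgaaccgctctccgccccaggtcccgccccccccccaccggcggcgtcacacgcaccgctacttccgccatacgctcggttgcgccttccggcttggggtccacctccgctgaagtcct
Sdhaf1: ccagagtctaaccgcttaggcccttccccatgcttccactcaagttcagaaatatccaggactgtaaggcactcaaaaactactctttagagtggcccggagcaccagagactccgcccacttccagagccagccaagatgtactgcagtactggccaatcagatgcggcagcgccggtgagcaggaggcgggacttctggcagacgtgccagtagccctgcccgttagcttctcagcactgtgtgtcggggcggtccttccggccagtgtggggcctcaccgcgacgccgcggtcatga
Ndufaf5: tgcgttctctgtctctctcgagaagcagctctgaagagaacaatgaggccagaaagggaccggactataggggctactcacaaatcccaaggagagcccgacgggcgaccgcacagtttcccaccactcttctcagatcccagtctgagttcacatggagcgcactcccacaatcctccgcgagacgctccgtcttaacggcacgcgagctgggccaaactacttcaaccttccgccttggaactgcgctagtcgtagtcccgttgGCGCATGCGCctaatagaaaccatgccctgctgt
Sdha: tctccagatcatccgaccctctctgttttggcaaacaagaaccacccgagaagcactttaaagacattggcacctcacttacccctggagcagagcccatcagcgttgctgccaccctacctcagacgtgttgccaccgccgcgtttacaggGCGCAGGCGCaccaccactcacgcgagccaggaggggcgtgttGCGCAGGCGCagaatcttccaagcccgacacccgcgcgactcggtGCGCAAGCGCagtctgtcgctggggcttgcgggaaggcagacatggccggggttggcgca

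Within each complex, transcript levels were far from equal. Levels between genes were compared as CPM per kilobase (kb) of the deposited gene length, which joins all annotated exons and so lowers the value of genes with long alternative transcripts. Over the 9 untreated WT libraries, the median subunit lay at 34.2 CPM per kb in complex I, 44.6 in complex II, 64.4 in complex III, 99.9 in complex IV and 58.7 in complex V. The assembly factors had a median of 6.06 CPM per kb, below that of every complex. In complex I the level ran from 3.56 ± 0.38 CPM per kb (SD, n = 9) for the membrane-arm subunit Ndufb2, whose deposited length of 5628 bases is long for a small protein, to 98.5 ± 9.05 for Ndufa4, a protein now assigned to complex IV. Complex II ran from 40.1 ± 3.74 CPM per kb for the iron-sulfur subunit Sdhb to 127 ± 8.48 for the membrane anchor Sdhd.

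Complex III, here without Cyc1, was the most even, with 2.68-fold between its lowest and highest subunit. It ran from 40.9 ± 1.24 CPM per kb (SD, n = 9) for the core protein Uqcrc1 to 109.5 ± 12.3 for the small subunit Uqcr10. Complex IV ran from 40.8 ± 4.72 CPM per kb for Cox6c to 229 ± 14.2 for Cox6b1, the highest of the 88 members. Complex V ran from 8.20 ± 0.38 CPM per kb for Atp5g1 to 218 ± 7.58 for Atp5a1, the alpha subunit of the catalytic head. Atp5g1, Atp5g2 and Atp5g3 encode the same mature c-ring protein, and the 3 genes stood at 8.20, 57.6 and 102 CPM per kb. Among assembly factors the level ran from 1.30 ± 0.19 CPM per kb for Sdhaf3 to 15.7 ± 1.94 for Sdhaf4, both of complex II.

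Paralogs that are known from muscle, testis or hypoxic tissues were at low levels. Cox4i1 stood at 304 ± 12.2 CPM (SD, n = 9) in untreated WT libraries, while its paralog Cox4i2 had a mean of 1.27 CPM over the 30 libraries. Cox6a1 (89.6 CPM) and Cox7a2 (110 CPM) were likewise far above their muscle paralogs Cox6a2 (0.14 CPM) and Cox7a1 (2.57 CPM). Ndufa4l2, a hypoxia-induced paralog of Ndufa4, was at 0.0077 CPM, and AA467197, another Ndufa4 paralog, was at 0.063 ± 0.069 CPM in untreated WT libraries. Cox6b2, Cox7b2, Cox8b and Cox8c had no count in any library, which allows a level of up to 0.193 CPM in the smallest library (3 counts, for counting error only).

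Transcripts of mtDNA outweighed the nuclear members. The 13 mtDNA-encoded mRNAs took 2.55% to 3.56% of counts per library, against 0.799% to 1.01% for all 88 members together. Per kb, their median was 498 CPM in untreated WT libraries, with mt-Co1, the catalytic core of complex IV, highest at 7636 ± 469 and mt-Nd3 lowest at 7.03 ± 1.58 (SD, n = 9). Only uniquely aligned fragments were counted, and 5 mtDNA mRNAs (mt-Co2, mt-Atp6, mt-Co3, mt-Nd3 and mt-Nd4l) have a copy on nuclear chromosome 1 that spans 98.3% to 99.9% of their length with no base difference in the reference. These 5 lay at 16.3 to 149.6 CPM per kb (mean of 30 libraries, the lowest being mt-Nd3, which 1 library at 98.7 CPM raised from a median of 2.34 CPM), and the other 8 at 250.6 to 8237. Copies of part of the length were found for mt-Nd4 (63.6%) and mt-Co1 (31.3%), which are among the 8. The groups do not overlap, and whether fragments of the 5 were lost was not tested.

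**Figure D1:**
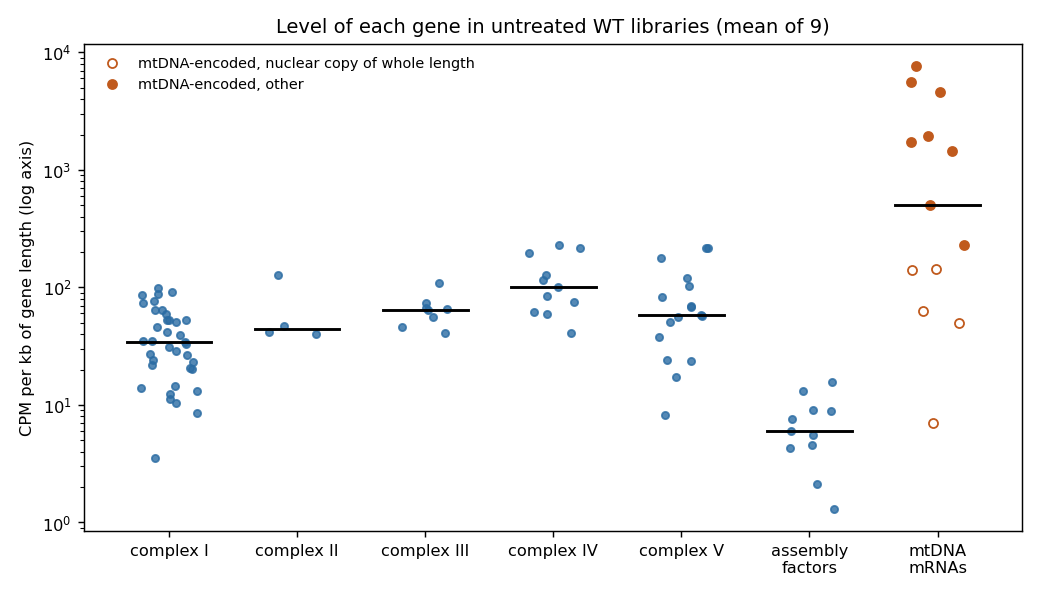
Level of each member by complex, and of the 13 mtDNA-encoded mRNAs, as CPM per kb of deposited gene length on a log axis, mean over the 9 untreated WT libraries, with a bar at each median. Open symbols are mtDNA mRNAs with a whole-length copy on a nuclear chromosome. The assembly factors have the lowest median, 6.06 CPM per kb, and mt-Co1 is highest at 7636.

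IFNG left the machinery as a whole nearly level. The summed level of the 88 members was 8674 ± 375 CPM in untreated WT libraries and 8672 ± 409 CPM with IFNG (SD, n = 9 each). In KO libraries it was 9347 ± 524 CPM untreated and 9364 ± 228 CPM with IFNG (SD, n = 6 each). In edgeR quasi-likelihood tests of each clone, with Benjamini-Hochberg adjustment over all genes and a threshold of 0.05, the members called were 3 in WT1 (3 higher), 4 in WT2 (2 higher, 2 lower), 11 in WT3 (2 higher, 9 lower), 8 in KO1 (3 higher, 5 lower) and 3 in KO2 (3 higher). Of all genes tested, 21.2% were called in WT1 (11.8% higher, 9.47% lower), 34.5% in WT2 (17.4% and 17%), 36.1% in WT3 (18.6% and 17.5%), 29.4% in KO1 (16.2% and 13.2%) and 27.1% in KO2 (13.9% and 13.2%). The members' share was thus below that of all genes in each clone, although their median standard errors (0.047 to 0.074 on the log2 scale) were smaller than those of all genes (0.068 to 0.091).

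The sizes were small as well. No member changed by more than 0.5 on the log2 scale in any clone, and the median log2 fold change of the members was 0.007 in WT1, -0.014 in WT2, -0.040 in WT3, -0.030 in KO1 and 0.035 in KO2. Of the 88 members, 71 were called in no clone, against 49.5% of all 12834 genes tested in every clone, and 25 had the same sign in all 5 clones, against 53.8%. Sdhaf2 was the only member higher in all 5 clones, a pattern of 9.47% of all genes. No member was lower in 4 or more clones, a pattern of 9.86% of all genes. The counts in single clones depended on 1 library and moved both ways. Without library 1 of untreated WT1 the count in WT1 went from 3 to 12, all higher, while all genes called went from 21.2% to 18.8%. The count in WT1 was 1 without library 2 or 3 of untreated WT1 or library 2 of IFNG-treated WT1 (16.1% to 17.6% of all genes). Without library 1 of IFNG-treated WT3 the count in WT3 went from 11 to 22, with 19 lower, and all genes called from 36.1% to 39.2%. It was 3 without library 2 or 3 of IFNG-treated WT3 (30.3% and 30.9% of all genes). Without library 1 of untreated WT3 it was 4 (29.7%), and without library 3 it was 5 (31.3%). In KO1 it went from 8 (29.4% of all genes) to 3 without untreated library 2 (24.4%) and 4 without untreated library 1 (24.6%). Without IFNG-treated library 1 or 2 of KO1 it was 5 (24.7% and 24.1%). In KO2 it went from 3 (27.1%) to 1 without untreated library 1 or 3 (22.7% and 22.9%), and to 6 without IFNG-treated library 1 (27.4%). In WT2 it went from 4 (34.5%) to 2 without untreated library 2 (29.5%).

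Over all 30 libraries, with clone as a term, 23 of 88 members were called, 8 higher and 15 lower, against 52.4% of the 14870 genes tested (24.6% higher, 27.9% lower), and the medians were -0.012 for members and -0.008 for all genes. Without WT3 the count was 11 (47.5% of all genes called), and without any other clone it was 17 to 21 (48.3% to 50.9%). By complex these were 2 higher and 8 lower of 37 in complex I, none of 4 in complex II, 1 higher of 8 in complex III, 1 higher and 1 lower of 11 in complex IV, and 2 higher and 3 lower of 17 in complex V. The assembly factors, 11 in number, held 2 that rose and 3 that fell, among them the largest change in each direction. The size of this count rested on the scaling: with library totals in place of TMM factors, 3 were higher and 51 lower, while the median of all genes moved to -0.064. The same change of scale gave 1 higher and 35 lower in KO1, where the median of all genes moved to -0.10, 1 higher and 24 lower in WT3, 1 higher and 11 lower in WT2, 1 higher in KO2, and 2 higher and 1 lower in WT1. Only the TMM-scaled values are therefore changes relative to the bulk of genes, and a change in total RNA per cell cannot be told apart from them.

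**Figure D2:**
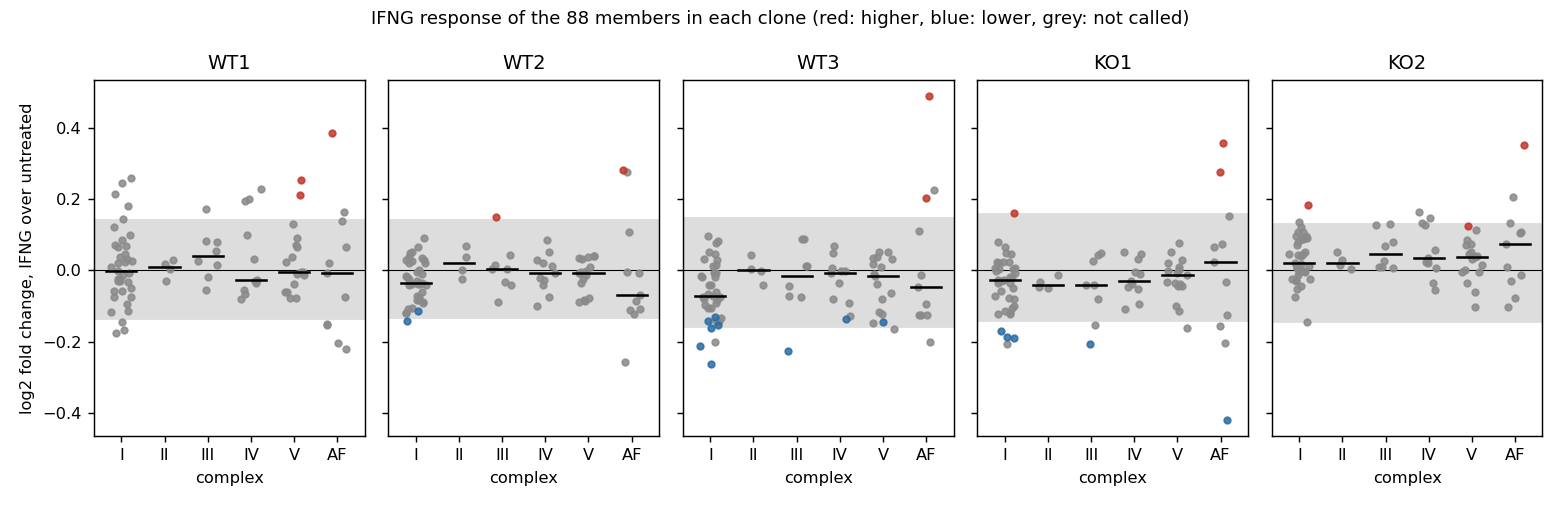
Log2 fold change with IFNG of each member in each of the 5 clones, by complex (AF, assembly factors), with a bar at each median. Red points were called higher and blue lower by the edgeR test, grey points were not called, and the grey band runs from the lower to the upper quartile of all genes tested. Most members lie inside the band, and Sdhaf2 lies above it in all 5 clones, at 0.28 to 0.49.

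Sdhaf2, the factor that helps attach the flavin cofactor to Sdha, carried the clearest response. In WT1 it was at 38.7, 39.5 and 36.6 CPM untreated and 50.6, 48.5 and 51.9 CPM with IFNG. In WT2 it went from 43.6, 45.0 and 46.4 CPM to 54.3, 53.5 and 54.5 CPM. In WT3 it went from 38.9, 39.5 and 40.7 CPM to 51.6, 57.3 and 57.5 CPM. The KO clones, which lack the element in an intron of Dicer1, gave values in the same range. In KO1 Sdhaf2 was at 39.1, 39.1 and 42.3 CPM untreated and 51.8, 47.8 and 51.4 CPM with IFNG, and in KO2 at 37.9, 36.9 and 39.3 CPM and then 49.3, 46.8 and 49.7 CPM. Untreated and treated libraries did not overlap in any clone. The log2 fold changes were 0.38 in WT1, 0.28 in WT2, 0.49 in WT3, 0.36 in KO1 and 0.35 in KO2, and over all clones 0.36 (SE 0.024, edgeR adjusted p = 3.2e-15).

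Its target did not move with it. Sdha, the flavin-bearing catalytic subunit whose promoter holds 3 Nrf1 matches, had log2 fold changes of -0.030, 0.038, 0.045, -0.013 and 0.028 in WT1, WT2, WT3, KO1 and KO2. The other complex II subunits Sdhb, Sdhc and Sdhd stayed between -0.050 and 0.070 in each clone, and none of the 4 passed the test anywhere. Sdhaf1, a factor for iron-sulfur insertion into Sdhb, was at 12.2, 13.6 and 11.9 CPM in untreated KO1 and 9.67, 9.34 and 8.52 CPM with IFNG, without overlap. Sdhaf1 fell by 0.42 on the log2 scale in KO1 (SE 0.088, edgeR adjusted p = 0.0023) and by 0.23 over all clones (SE 0.046, edgeR adjusted p = 7.4e-05), while in KO2 its untreated (9.99 to 11.5 CPM) and treated (9.15 to 10.7 CPM) libraries overlapped.

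In complex I, the subunits called over all clones were mostly lower. Its shares called lower and higher were both below those of all genes (27.9% and 24.6%). Ndufs8, which holds iron-sulfur clusters near the quinone site, was at 89.2, 92.2 and 87.8 CPM in untreated WT2 and 80.9, 80.8 and 80.1 CPM with IFNG. In KO1 it went from 88.4, 86.1 and 87.6 CPM to 75.1, 76.6 and 73.1 CPM, while the KO2 libraries overlapped, at 66.9 to 71.2 CPM untreated and 63.6 to 72.8 CPM treated. Ndufs8 fell in WT2 (-0.14), WT3 (-0.13) and KO1 (-0.19), and by 0.14 over all clones (SE 0.023, edgeR adjusted p = 2.3e-06). Ndufs7, which carries the last iron-sulfur cluster before ubiquinone, fell by 0.15 (SE 0.047, adjusted p = 0.0057), and the assembly factors Ndufaf7 and Ndufaf3 fell by 0.12 each. Higher were Ndufs4, an accessory subunit whose loss causes Leigh-like disease (0.14 over all clones, SE 0.034, adjusted p = 0.00098), and Ndufaf5, an enzyme that modifies Ndufs7 during assembly (0.20, SE 0.049, adjusted p = 0.00072). In single clones Ndufs4 was called in KO1 (0.16) and KO2 (0.18), and Ndufaf5 in KO1 (0.28) alone.

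Some calls in single clones had opposite signs. Uqcr11, a small subunit of complex III, was higher with IFNG in WT2 (log2 fold change 0.15, SE 0.058, edgeR adjusted p = 0.0498) and lower in KO1 (-0.21, SE 0.067, adjusted p = 0.031) and WT3 (-0.23, SE 0.064, adjusted p = 0.0093). In WT2 it was at 32.1, 34.6 and 34.3 CPM untreated and 39.2, 34.8 and 36.8 CPM treated, so the groups were separate by a narrow margin, and the call was lost in 8 of the alternatives. Ndufa13 fell in KO1 (-0.19) and WT3 (-0.21), Ndufb7 in KO1 (-0.17) and WT3 (-0.15), Ndufa2 in WT3 (-0.26), Ndufb9 in WT3 (-0.16) and Ndufa4 in WT2 (-0.11). Higher in 1 clone were the complex V subunits Atp5l (0.26) in WT1 and Atp5f1 (0.13) in KO2, and the assembly factor Ndufaf4 (0.20) in WT3. Atp5j2, also of complex V, was called higher in WT1 (0.21) and lower in WT3 (-0.14). In complexes III and IV, Uqcrc2 (0.055) and Cox7b (0.092) rose over all clones, but with library totals Uqcrc2 was at -0.00073 and Cox7b lost its call.

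The response of the members did not differ detectably between genotypes. In the test of the KO minus WT difference in IFNG response, none of the 88 members passed with edgeR, against 1.02% of all genes (0.679% higher, 0.336% lower), and none with DESeq2, while 1 member (Ndufaf3) had an unadjusted p under 0.05. The differences ran from -0.12 to 0.16 on the log2 scale, with a median standard error of 0.063, so a difference between genotypes of the size of most single-gene responses here could not have been seen. For Sdhaf2 the difference was -0.042 (SE 0.050, adjusted p = 0.89). The test had no term for the responses of single clones, so libraries stand as its replicates.

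The mtDNA-encoded mRNAs showed no shared direction. In WT2, 5 of 13 were lower (mt-Nd1, mt-Nd4, mt-Cytb, mt-Co1 and mt-Co3, between -0.22 and -0.087), against 17% of all genes, and the median was -0.098. In KO1, 2 of 13 were higher, against 16.2% of all genes, and the median was 0.16. In WT3 mt-Nd6 was higher (0.28), as were 18.6% of all genes. In KO2 none passed the edgeR test, against 27.1% of all genes, with 2 at an unadjusted p under 0.05. In WT1 mt-Nd3 and mt-Atp8 were called higher, as were 11.8% of all genes. The mt-Nd3 call rested on a single library: library 2 of IFNG-treated WT1 was at 98.7 CPM, and the other 8 IFNG-treated WT libraries were at 1.90 to 2.82 CPM. Over all clones, mt-Nd6, a complex I subunit and the only mRNA on its strand of mtDNA, rose by 0.12 on the log2 scale (SE 0.041, edgeR adjusted p = 0.012), from 222 to 289 CPM in untreated WT libraries to 239 to 345 CPM treated, with overlap. The other mRNA called was mt-Nd3, while 52.4% of all genes were called over all clones.

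Genes that act on mitochondrial RNA, DNA and biogenesis went both ways with IFNG, and their difference from the subunits was not tested. Over all clones, 5 of 19 genes of mitochondrial gene expression were higher and 6 lower, and 4 of 9 tested regulators were higher and 4 lower, against the 24.6% higher and 27.9% lower of all genes. Pnpt1, a mitochondrial RNA exonuclease known as an interferon-stimulated gene, was called higher in all 5 clones, at 0.59, 0.71, 0.86, 0.59 and 0.60 on the log2 scale in WT1, WT2, WT3, KO1 and KO2. It went from 49.7 to 53.9 CPM to 73.5 to 83.3 CPM in WT1, and from 48.7 to 53.0 CPM to 85.5 to 98.9 CPM in WT3. Twnk, the mtDNA helicase, was lower in all 5 clones, between -0.58 and -0.39. Of all genes tested in every clone, 9.47% were called higher in all 5 and 7.04% lower. Ppargc1b, a coactivator of mitochondrial biogenesis, was lower in all 5 clones as well. It ran from -1.15 in WT3 (9.94 to 11.4 CPM, then 4.75 to 4.92 CPM) to -0.49 in KO1 (11.5 to 12.6 CPM, then 7.44 to 9.06 CPM).

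Esrra, the nuclear receptor that works with such coactivators, fell in 4 clones (-0.22, -0.43, -0.29 and -0.30 in WT2, WT3, KO1 and KO2), and Hif1a, which drives glycolytic genes, rose in the same 4 (0.14 to 0.22). Nrf1 was called in no clone. Of 13 tricarboxylic acid cycle genes, 3 were higher and 4 lower over all clones, near the 24.6% and 27.9% of all genes. Fh1, fumarase, was the one called in single clones, higher in WT2 (0.15), WT3 (0.28), KO1 (0.21) and KO2 (0.25). Of 28 assembly factors with other symbols, 6 were higher and 4 lower, against 24.6% and 27.9% of all genes. Acad9, a complex I assembly factor, was higher in 4 clones (0.13 to 0.18). In at least 4 clones, 12.2% of all genes were called higher and 9.86% lower.

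**Figure D3:**
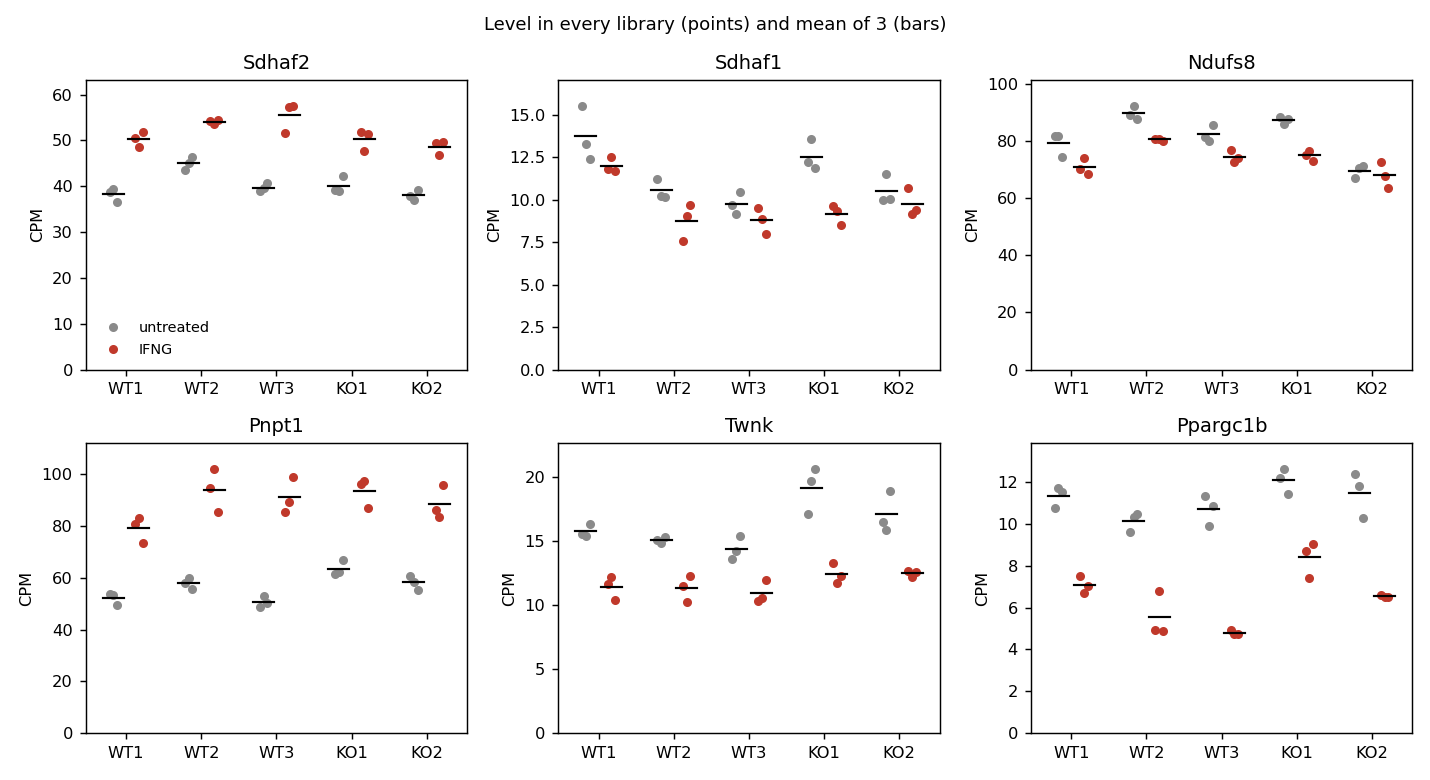
CPM in each library, untreated and with IFNG, for Sdhaf2, Sdhaf1, Ndufs8, Pnpt1, Twnk and Ppargc1b in the 5 clones, with a bar at each mean of 3. Sdhaf2 and Pnpt1 are higher and Ppargc1b lower with IFNG in every clone without overlap, while Sdhaf1 overlaps in WT1, WT3 and KO2 and Ndufs8 in KO2.

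Most members differed among the untreated clones. The range given here runs from the lowest to the highest of 5 clones, whereas the IFNG response is a signed difference between treated and untreated libraries. These are unlike measures, so whether clones differed by more than the IFNG response was not tested. In untreated libraries, 79 of 88 members differed among the 5 clones in the edgeR test, against 73.2% of all genes, and the median member ranged over 0.32 on the log2 scale between its highest and lowest clone (1.25-fold), against 0.38 for all 14467 genes. The members leaned 1 way in clone KO1, which had the highest level in 63 of 88 members and in 24.6% of all genes, while WT3 had the lowest in 44 members and in 19.8% of all genes. Relative to the mean of the clones, the median member lay at 0.14 in KO1, 0.00099 in KO2, -0.0064 in WT1, -0.0015 in WT2 and -0.093 in WT3, and the corresponding medians of all genes lay between -0.0018 and 0.0087. The mtDNA mRNAs followed another order, with WT1 lowest in 11 of 13 (26.7% of all genes) and a median of -0.25 there. Members varied widely in this, from Atp5g2 with a range of 0.069 to Ndufaf5 with 0.76.

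KO1 and KO2 were each set against the same 9 untreated WT libraries, so their values are given side by side and are not independent. In KO1, 35 of 88 members were higher and 4 lower, against 11.1% higher and 14.6% lower among all genes (25.7% in all), with a median log2 difference of 0.17 for members and -0.0071 for all genes. In KO2, 7 were higher and 6 lower, against 4.89% and 6.70% (11.6% in all), with medians of 0.047 and -0.0034. By complex the members higher and lower in KO1 were 12 and 2 in complex I, 3 and 0 in complex II, 2 and 0 in complex III, 8 and 1 in complex IV, 6 and 0 in complex V, and 4 and 1 among assembly factors. The 13 mtDNA mRNAs did not lean the same way in KO1, with mt-Co1 alone higher (0.24) and a median of 0.020. Complex IV had the largest median in KO1, at 0.27, and complex II assembly factors the lowest, at -0.12. Genes of like level and length leaned the same way in KO1: of 561 other genes whose mean level and length lay between the lower and upper quartiles of the members, 22.1% were higher and 9.98% lower, with a median of 0.081. The part of level and length in the members' lean was not tested.

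These counts moved with clone WT1. Without WT1, KO1 had 57 higher and 4 lower members (51% of all genes called) and KO2 22 and 10 (40.6%), and without library 1 of untreated WT1 alone KO1 had 48 and 4 (30.3%). Among the KO1 libraries, leaving out library 1 or library 3 brought the count from 39 to 24 and 23 (16.1% and 16.3% of all genes), and each KO2 library left out brought KO2 from 13 to 5 or 6 (5.66% to 5.85%). In IFNG-treated libraries, a comparison added after the data were seen, KO1 had 22 higher and 3 lower (20.9% of all genes called, 8.76% higher and 12.1% lower) and KO2 3 and 3 (10%, with 3.92% and 6.12%). With both KO clones against WT, 26 were higher and 5 lower untreated (26.6% of all genes called, 12.2% higher and 14.4% lower), and 26 and 5 with IFNG (23.9%, with 10.9% and 13%). Without KO1 the pooled count fell to 13 untreated and 6 with IFNG (11.6% and 10% of all genes), and without WT1 it was 47 and 53 (47.8% and 44.8%). Without WT3 the count with IFNG was 15 (18.2%). The pooled untreated count rose from 31 to 33 without WT2 (21.4%) and to 39 without KO2 (25.7%), while the share of all genes fell. The other leave-out counts given here moved in the direction of those of all genes. With library totals in place of TMM factors the pooled count with IFNG was 9 higher and 6 lower.

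**Figure D4:**
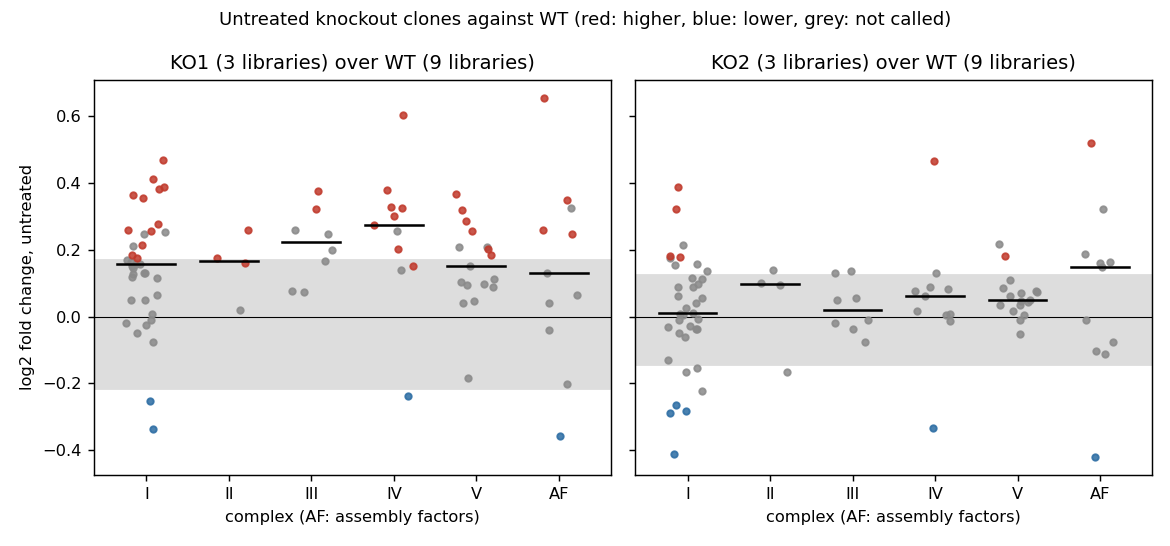
Log2 difference of untreated KO1 and KO2, each in its own panel, from the 9 untreated WT libraries for each member by complex (AF, assembly factors), with a bar at each median. Red points were called higher and blue lower by the edgeR test, grey points were not called, and the grey band runs from the lower to the upper quartile of all genes. In KO1 most members lie above 0 (median 0.17), and in KO2 their median is 0.047.

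In untreated libraries, 4 members had all 6 KO libraries above all 9 WT libraries (Ndufaf5, Sdha, Ndufb10 and Cox7a2l), a pattern of 4.1% of all genes, and 4 had them all below (Sdhaf4, Cox5b, Ndufb3 and Ndufa9), a pattern of 5.1%. Cox7a2l, which joins complexes III and IV into supercomplexes, was at a lowest, median and highest of 84.5, 95.7 and 112.5 CPM in WT and 127, 140 and 155 CPM in KO. Its difference was 0.60 in KO1 (SE 0.069, edgeR adjusted p = 4.9e-05) and 0.46 in KO2 (SE 0.069, adjusted p = 0.00079). Ndufaf5 was at 6.25, 7.54 and 9.89 CPM in WT and 10.5, 11.9 and 12.2 CPM in KO, a difference of 0.65 in KO1 and 0.52 in KO2. Sdha was at 182, 197 and 205 CPM in WT and 205, 219 and 226 CPM in KO, so the groups came close to touching. Its difference was 0.16 in KO1 (SE 0.042, adjusted p = 0.014) and 0.14 in KO2, where it did not pass the edgeR test (SE 0.046, adjusted p = 0.070).

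Lower in both KO clones were Ndufb3 and Ndufa9, accessory subunits of complex I, and Cox5b of complex IV. Ndufb3 was at a lowest, median and highest of 36.1, 37.97 and 43.4 CPM in untreated WT and 26.7, 30.04 and 32.1 CPM in KO. The difference was -0.34 in KO1 and -0.41 in KO2 (edgeR adjusted p = 0.0010 and 0.00074). Cox5b was at 111, 122 and 126.5 CPM in WT and 88.4, 98.7 and 105 CPM in KO (-0.24 and -0.33). Ndufa9 was at 111, 122 and 137 CPM in WT and 100.0, 103 and 106 CPM in KO (-0.25 and -0.28). With IFNG, 3 members had all KO libraries below all WT libraries (4.64% of all genes), again Ndufb3, Cox5b and Ndufa9, and 5 had them all above (3.13%), again Cox7a2l and otherwise Atp5c1, Atp5e, Ndufa13 and Cox4i1. Ndufaf5, Sdha, Ndufb10 and Sdhaf4 were no longer separate. Further calls were Ndufv2 (0.47 and 0.39) and Ndufa11 (0.39 and 0.32) in KO1 and KO2, Ndufa2 (0.41) in KO1, Ndufs1 (-0.29) in KO2, and Sdhaf4 (-0.36 and -0.42) in both.

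Other genes of the same chromosome stretch moved with several of these members. On chromosome 17, the genes other than members had a median log2 difference of 0.18 in KO1 and 0.19 in KO2. Of these other genes, 201 of 706 were called higher in KO1 and 151 of 709 in KO2. Of its 7 members, 4 were higher in each (Cox7a2l, Ndufv2, Ndufa11 and Ndufb10). Within 5 Mb of Cox7a2l the median of the other genes was 0.19 in KO1 and 0.22 in KO2, below its own 0.60 and 0.46. Within 5 Mb of Ndufaf5 on chromosome 2 it was 0.34 and 0.37, against 0.65 and 0.52. On chromosome 1, within 5 Mb of Cox5b, it was -0.33 and -0.29, and within 5 Mb of Ndufb3 -0.29 and -0.28. Within 5 Mb of Ndufa9 on chromosome 6 it was -0.34 and -0.39, lower than Ndufa9 itself. Other members named above did not share their shift with their neighbours in this way. Near Sdha the median was 0.040 in KO1 and 0.020 in KO2, against its own 0.16 and 0.14. Near Sdhaf4 it was -0.21 and -0.047, against -0.36 and -0.42. Near Ndufa2 it was -0.11 in KO1, against 0.41. Atp5mpl, a small subunit of complex V and the sole member on chromosome 12, which also holds Dicer1, was at -0.18 in KO1 without passing the test (adjusted p = 0.16), where the other genes of chromosome 12 had a median of -0.37. The part of these shared shifts in the members' values was not tested.

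WT1 differed from the other WT clones in 34 of 88 members, 22 higher and 12 lower, against 52.6% of all genes (26.4% higher, 26.2% lower). The highest differences were in complex I and its assembly factors, with Ndufv3 at 0.64 (SE 0.044), Ndufa6 at 0.55 (SE 0.057) and Ndufaf7 at 0.54 (SE 0.079), and the lowest were Ndufaf4 at -0.49 (SE 0.053) and Ndufs3 at -0.48 (SE 0.051). Ndufv3 was at 77.9, 74.8 and 73.6 CPM in untreated WT1, and the 6 libraries of the other WT clones lay between 45.5 and 51.5 CPM. Ndufs3 was at 36.3, 36.1 and 33.7 CPM in WT1 and between 46.4 and 53.6 CPM in the other WT clones. In both genes WT1 was apart from the rest. Of the 13 mtDNA mRNAs, 8 were lower in WT1 and none higher, with a median of -0.33; mt-Cytb, of complex III, was at 4887 to 5579 CPM in WT1 and 6485 to 7826 CPM in the others. For WT2 and WT3 against the other WT clones, where the reference holds WT1, no member passed the edgeR test, with 16 and 21 at an unadjusted p under 0.05, and 0.394% and 0.458% of all genes were higher and lower for WT2 and 0.551% and 0.472% for WT3.

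**Figure D5:**
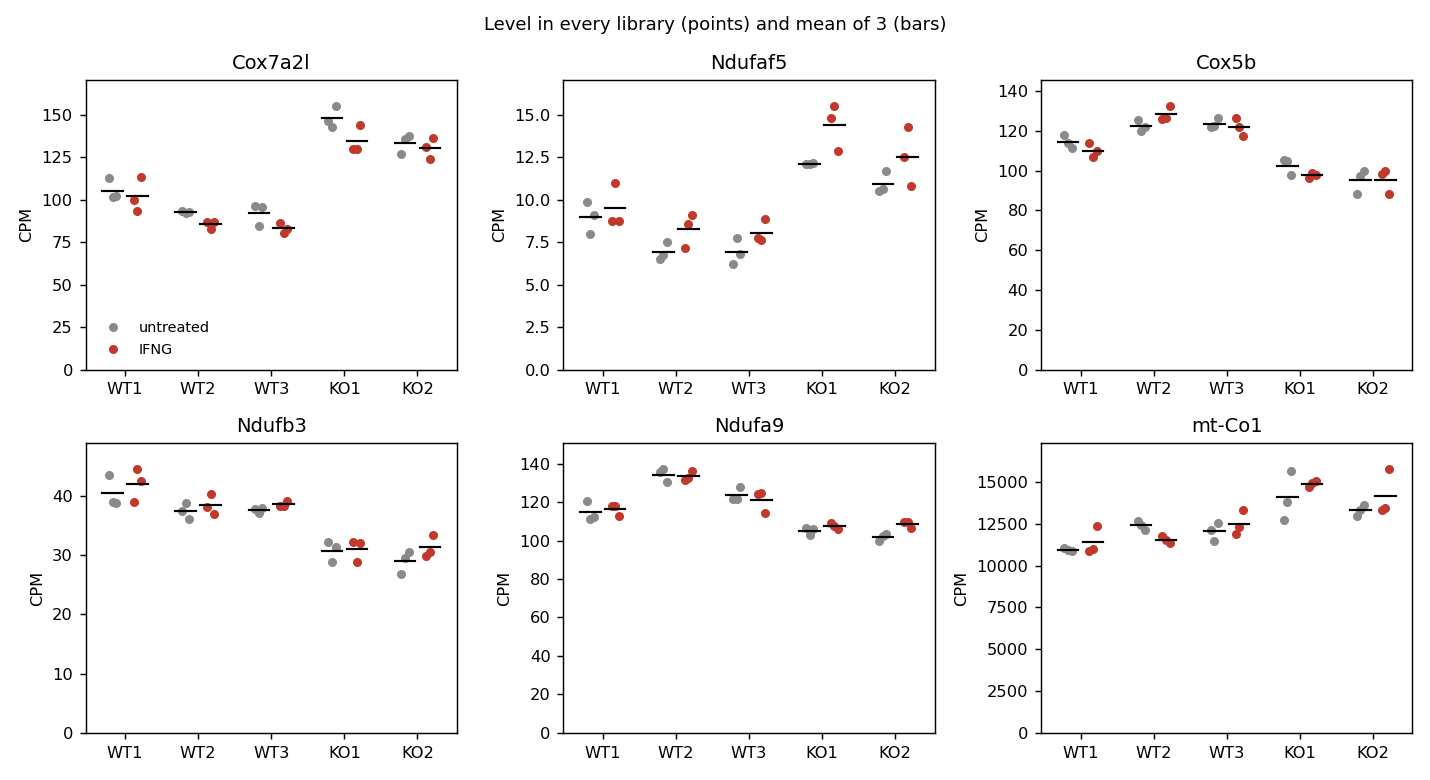
CPM in each library for Cox7a2l, Ndufaf5, Cox5b, Ndufb3, Ndufa9 and mt-Co1 in the 5 clones, untreated and with IFNG, with a bar at each mean of 3. Cox7a2l is higher and Cox5b, Ndufb3 and Ndufa9 lower in all KO libraries than in all WT libraries under either treatment, while untreated mt-Co1 runs from 10856 CPM in WT1 to 15660 CPM in KO1.

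Several members share exon sequence with another gene on the same strand, and fragments there were counted for both. The largest shared parts were in the Atp5o entry ENSMUSG00000116933.1, of 530 bases. It shared 287 bases (54.2%) with Donson and 243 bases (45.8%) with the other Atp5o entry, ENSMUSG00000022956.11. The Atp5o values are therefore not independent of each other, nor is ENSMUSG00000116933.1 independent of Donson. Smaller overlaps were found for Ndufb9 (201 bases), Ndufb2 (145 bases), Ndufb8 (134 bases) and Atp5g2 (75 bases). Calls of Ndufb9 in WT3 with IFNG and of Ndufb8 in KO1 against WT (0.26) may rest in part on such fragments.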

How the data were processed

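Per the file headers, the deposited files hold unnormalized fragment counts made with featureCounts 1.6.2 on mm10 with the Gencode vM18 annotation, reverse-stranded, with fragments over several genes counted for each. Before that, the authors trimmed reads with BBDuk, aligned them with HISAT2 2.1.0, kept uniquely aligned fragments and merged technical replicates with SAMtools 1.10. All results rest on the 30-library table. Its libraries recur in 13 other tables, as 138 columns with identical counts. Column names give clone and time but no replicate number, so libraries are numbered in column order, which only names them. The columns named wtc1 were taken as clone WT2.

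Tests were quasi-likelihood F tests of edgeR 4.0.16 under R 4.3.3 (TMM scaling, genes kept by filterByExpr, Benjamini-Hochberg adjustment over all genes tested, threshold 0.05). SEs are the log2 fold change divided by the square root of F. CPM are TMM-scaled. Tests of each clone used its 6 libraries, and the test over all clones had clone as a term. KO against WT had no clone term, so its residual spread includes that between clones of a genotype. Alternatives were DESeq2 1.42.0, library totals, RLE factors, other count filters, mt- genes left out, and each library or clone left out. Simulated counts with 100 genes changed by 0.5 and 100 by 1 on the log2 scale were tested first: for WT1, 74 and 86 were recovered, and for KO1 against WT, 37 and 82. Python 3.11.15, pandas 2.3.3, Biopython 1.88 and matplotlib 3.10.9 were used for levels, sequence matches and plots.

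The members and lists were chosen with earlier results of these data known. Genes named are, per comparison, up to 5 members with the largest called change in each direction, those called alike in at least 4 clones, the highest and lowest per complex, paralog sets, members on chromosome 12, the Sdh subunits, those nearest to the level minimum and mtDNA mRNAs. A withheld item is not reported here. Genes named from the other lists, members without overlap between genotypes and mt-Cytb were chosen after their values were seen.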

Additional observations from a re-analysis of the deposited data

Results flagged for a closer look

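Among 204 groups examined (the members named by the rule, the mtDNA mRNAs and the summed levels, each in the 9 WT or 6 KO libraries of a treatment), 18 had a lowest or highest library that stood farther from its neighbour than Dixon's 95% limit, where chance alone gives about 1 in 20, or 10.2. Pooled groups hold several clones, so a clone that differs can widen or hide such a gap. Library 1 of untreated WT1 was the highest of 9 in 6 of them, with Cox7b at 156 CPM (next 129), Ndufa2 at 44.9 (next 38.2), Ndufb3 at 43.4 (next 39.0), Uqcr11 at 45.5 (next 38.4), the complex III sum at 872 (next 781) and the complex IV sum at 1654 (next 1503). In KO libraries, Cox5b was lowest at 88.3 CPM in library 3 of IFNG-treated KO2, Ndufa11 lowest at 34.2 in library 1 of untreated KO2, and Ndufb9 highest at 79.1 in library 1 of IFNG-treated KO2.

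Of the mtDNA mRNAs, mt-Nd3 was at 98.7 CPM in library 2 of IFNG-treated WT1 (next 2.82), mt-Atp8 at 77.8 in library 1 of untreated WT3, mt-Atp6 at 194.5 in library 2 of IFNG-treated KO1 and mt-Co1 at 15660 in library 3 of untreated KO1. Library 1 of untreated KO1 was lowest for mt-Nd4 (1614 CPM), mt-Nd5 (2705 CPM) and mt-Nd4l (13.96 CPM). The level of mt-Nd4l was highest at 46.2 CPM in library 1 of IFNG-treated KO2 and at 35.8 CPM in library 2 of untreated WT2.

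The IFNG response of Polg2, the accessory subunit of the mtDNA polymerase, was called in the interaction test, as were 1.02% of all genes. The KO minus WT difference was -0.59 on the log2 scale (SE 0.15, edgeR adjusted p = 0.037). The p-value counts libraries, not the 2 KO and 3 WT clones, as replicates, so an effect of genotype cannot be told apart from differences between clones. Polg2 had the lowest level of the 19 genes of mitochondrial gene expression, at 0.572 CPM per kb in untreated WT libraries.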

How the results depend on the processing

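Of the values compared under alternatives, 105 counts stayed within 1.5 times and 48 did not. Of the single-gene results, 1132 kept their direction and side of the threshold, 171 fell short of it, 2 passed it and 2 turned sign. With library totals in place of TMM factors, the members called with IFNG were 36 in KO1, 1 in KO2, 12 in WT2, 25 in WT3 and 54 over all clones, KO against WT with IFNG gave 15, and the log2 fold change of Uqcrc2 over all clones turned to -0.00073 with no call. DESeq2 called 5 in KO1, 2 in WT2 and 6 in WT3. Without a filter beyond 1 count, 5 were called in KO2 and 6 in WT1. In comparisons chosen after the data were seen, IFNG-treated libraries gave 25 in KO1 and 6 in KO2, and single WT clones against the other WT clones gave 34 for WT1, 0 for WT2 and 0 for WT3. Leaving out 1 library or clone, the counts ran from 3 to 11 in KO1, 1 to 6 in KO2, 1 to 12 in WT1, 2 to 5 in WT2, 3 to 22 in WT3, 11 to 21 over all clones (11 without WT3), 23 to 61 for KO1 against WT, 5 to 32 for KO2 against WT, 13 to 47 and 6 to 53 for KO against WT untreated and with IFNG, and 63 to 83 for the 5 clones. The difference between genotypes stayed at 0 members. Acad9 in WT1 ran from -0.010 (without library 1 of IFNG-treated WT1) to 0.14. The cause of these changes was not tested. Sdhaf2 kept its call in each clone under every alternative run. A level minimum of 1 CPM gave 95 members and one of 10 gave 84. In simulations for KO1 against WT, 37 of 100 changes of 0.5 on the log2 scale were found, so smaller ones can be missed. No paired analysis was possible because the columns carry no replicate numbers.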

Other observations

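The 2 mitochondrial rRNAs, mt-Rnr1 and mt-Rnr2, which poly(A) selection only partly keeps, had values outside the comparisons of the subunits. Over all clones neither passed the test with IFNG. In WT2 both were lower with IFNG, between -0.29 and -0.12 on the log2 scale, and in KO1 mt-Rnr1 was higher, at 0.41. In untreated KO1, mt-Rnr2 was 0.44 above WT on the log2 scale (SE 0.10, edgeR adjusted p = 0.0058). Their summed level in untreated libraries was 1924 ± 38.7 CPM in WT1, 2123 ± 80.4 in WT2, 1727 ± 55.6 in WT3, 2492 ± 366 in KO1 and 1931 ± 37.2 in KO2 (SD, n = 3 each).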
